A study of Mus musculus with 24 samples.

Results

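The comparison described here was between SmcHD1-mutant (KO) neural stem cells (NSCs) and the KO mouse embryonic stem cells (mESCs) of the same line, 3 poly(A) RNA-seq libraries each, out of a series of 24 libraries in 8 groups (KO and wild type at 4 stages). Its members were all genes outside the X and Y chromosomes whose FPKM (fragments per kilobase, corrected for library depth) averaged at least 1 over these 6 libraries. Of 23119 genes listed, 22028 lay outside X and Y and 11708 were members. One member, Serbp1, had a failed estimate in KO mESC replicate 3, so 11707 genes were tested. Just inside the limit were 9930012K11Rik (mean 1.0009), Chrd (1.002) and C330024D21Rik (1.0024), and just outside it 4921517L17Rik (0.99855), Rhbdl1 (0.9984) and Map3k14 (0.99806).

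All groups came from JB4/EI7HZ2, a female mESC line of a JF1 by B6 cross, which carries CAGzeo at Hprt on the JF1 X and IRESneo in Eif2s3x on the B6 X and was kept under G418 and Zeocin. The KO was 1 CRISPR–Cas9 mutant line, so the comparison holds for 1 line. The mESCs were grown in serum with LIF and 2i, the MEK inhibitor PD0325901 and the GSK3 inhibitor CHIR99021, whereas the NSCs, derived through adherent neural differentiation and aggregates, were grown in N2 medium with FGF2 and EGF. Stage and medium therefore changed together and cannot be told apart. Reads of the X chromosome had been removed before quantification.

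SmcHD1 is a noncanonical SMC protein that binds the inactive X and some autosomal clusters and keeps them silent. Embryonic stem cells in 2i and LIF hold a naive state, maintained by Pou5f1, Sox2, Nanog and a set of Klf, Esrrb and Tfcp2l1 factors, with low DNA methylation and expression of some germline genes. Neural stem cells grown with FGF2 and EGF resemble radial glia, the progenitors of the developing brain, and depend on Notch signalling, Sox factors and Olig2 for self-renewal.

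A few promoters are shown, of genes from the Notch and germline groups described in the following paragraphs. The sequences are the 250 bases before the start of each gene on its own strand, 5′ to 3′, from RefSeq (GRCm38.p6). They were chosen after the matches were seen. In Hes5 (chr4:154960673-154960922, plus strand) and Lfng (chr5:140607091-140607340, plus strand) capitals mark GTGGGAA or its reverse complement TTCCCAC, the core motif of the Notch partner RBPJ. In Hormad1 (chr3:95559427-95559676, plus strand), Sycp3 (chr10:88459337-88459586, plus strand) and Mael (chr1:166238745-166238994, minus strand) capitals mark the E-box CACGTG and the E2F6 motif TCCCGC or its reverse complement GCGGGA.
Hes5: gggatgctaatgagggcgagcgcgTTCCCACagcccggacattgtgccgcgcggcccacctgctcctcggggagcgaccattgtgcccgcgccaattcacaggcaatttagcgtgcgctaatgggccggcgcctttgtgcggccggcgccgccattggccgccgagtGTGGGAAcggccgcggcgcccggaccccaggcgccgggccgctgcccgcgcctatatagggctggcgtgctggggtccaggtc
Lfng: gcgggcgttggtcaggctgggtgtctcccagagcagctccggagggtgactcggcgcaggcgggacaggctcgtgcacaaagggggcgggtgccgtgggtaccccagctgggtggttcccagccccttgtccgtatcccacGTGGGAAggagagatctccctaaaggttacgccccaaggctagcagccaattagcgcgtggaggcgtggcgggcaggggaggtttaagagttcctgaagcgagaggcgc
Hormad1: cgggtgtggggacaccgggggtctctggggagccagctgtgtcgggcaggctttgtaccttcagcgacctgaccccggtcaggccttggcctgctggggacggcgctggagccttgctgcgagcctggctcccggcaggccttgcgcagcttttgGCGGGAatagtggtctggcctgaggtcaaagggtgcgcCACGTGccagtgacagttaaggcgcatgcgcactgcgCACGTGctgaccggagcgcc
Sycp3: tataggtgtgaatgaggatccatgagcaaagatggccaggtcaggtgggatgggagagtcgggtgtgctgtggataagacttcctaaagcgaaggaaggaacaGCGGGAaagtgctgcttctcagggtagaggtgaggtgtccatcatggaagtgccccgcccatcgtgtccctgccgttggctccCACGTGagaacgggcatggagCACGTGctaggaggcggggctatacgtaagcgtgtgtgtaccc
Mael: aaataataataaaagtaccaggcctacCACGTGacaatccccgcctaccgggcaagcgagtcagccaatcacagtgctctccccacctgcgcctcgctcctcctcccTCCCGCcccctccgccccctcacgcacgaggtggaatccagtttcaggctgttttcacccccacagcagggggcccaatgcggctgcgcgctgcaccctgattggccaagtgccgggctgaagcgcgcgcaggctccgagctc

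Relative read numbers of the 6 libraries, read from the smallest steps of their FPKM values, differed by 1.316 times at most (0.88 to 1.158), and read totals themselves were not given. FPKM values summed to between 750580 and 802938 in KO mESCs and between 504660 and 576420 in KO NSCs, and 14304 to 14479 and 13857 to 14092 genes were above 0. The 100 highest genes took 39.6 to 41.8% of the sum in KO mESCs and 28.9 to 32.9% in KO NSCs. Pearson's r of the log2 values over genes was 0.9825 to 0.9845 within KO mESCs, 0.9796 to 0.982 within KO NSCs and 0.6447 to 0.6833 between them. No 2 libraries of a group looked like 1 library deposited again, since at most 0.00854% of the members had the same value above 0.

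Smchd1, the targeted gene (chr17:71693834-71824683, mm9), was measured at 2.71, 2.97 and 1.82 FPKM in the KO mESC libraries and 4.37, 3.83 and 3.43 in the KO NSC libraries. All 6 lay below every WT library, which ranged from 13 to 13.9 in mESCs and from 16.1 to 21.4 in NSCs. Within the KO line the residual transcript was higher in NSCs by 0.49 (SE 0.13, adjusted p = 0.00143, limma).

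The cells differed at most genes. In all, 9170 of the 11707 tested genes (78.3%) were called at an adjusted p under 0.05, 4532 of them higher in NSCs (38.7%) and 4638 lower (39.6%). A change of at least 1 on the log2(FPKM + 1) scale was called for 5097 genes (43.5%), 2642 higher (22.6%) and 2455 lower (21%), and for 9438 genes (80.6%) the 3 NSC libraries did not overlap the 3 mESC libraries. Changes of at least 4 were called for 212 genes that rose and 235 that fell. The median size of the change was 0.86 and the median SE 0.15. These are bulk samples, so fewer cells of a type and less RNA per cell cannot be told apart. With FPKM as deposited 49.4% of the called genes were higher in NSCs, but 67.8% were when each library was scaled to the same sum, which moved the median change of all genes from -0.01 to 0.46. Small changes of abundant genes hang on this choice, and those that lose their call under it are named where they come up.

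Markers of both cell types matched the labels in all 6 libraries. Pou5f1, the core pluripotency factor (chr17:35642977-35647722), was at 1322, 1532 and 1526 FPKM in KO mESCs and at 0, 0 and 0.156 in KO NSCs. Nanog, which shares its entry with Nanogpd, was at 692, 859 and 917 against 0.544, 0.162 and 1.05. Sox2, used by both states, was at 326, 322 and 321 against 108, 157 and 128 and fell by 1.32 (SE 0.13, adjusted p = 8.11e-09). In the other direction, Nes, the intermediate filament nestin of neural progenitors, was at 5.51, 5.06 and 7.68 in KO mESCs and at 140, 109 and 111 in KO NSCs. Fabp7, the brain lipid-binding protein of radial glia (chr10:57504729-57508256), was at 0, 0 and 0.842 against 3089, 3025 and 2286. No marker of either kind overlapped between the groups, and Sox2 and Vim, the intermediate filament vimentin, were the markers with over 100 FPKM in every library.

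**Figure D1:**
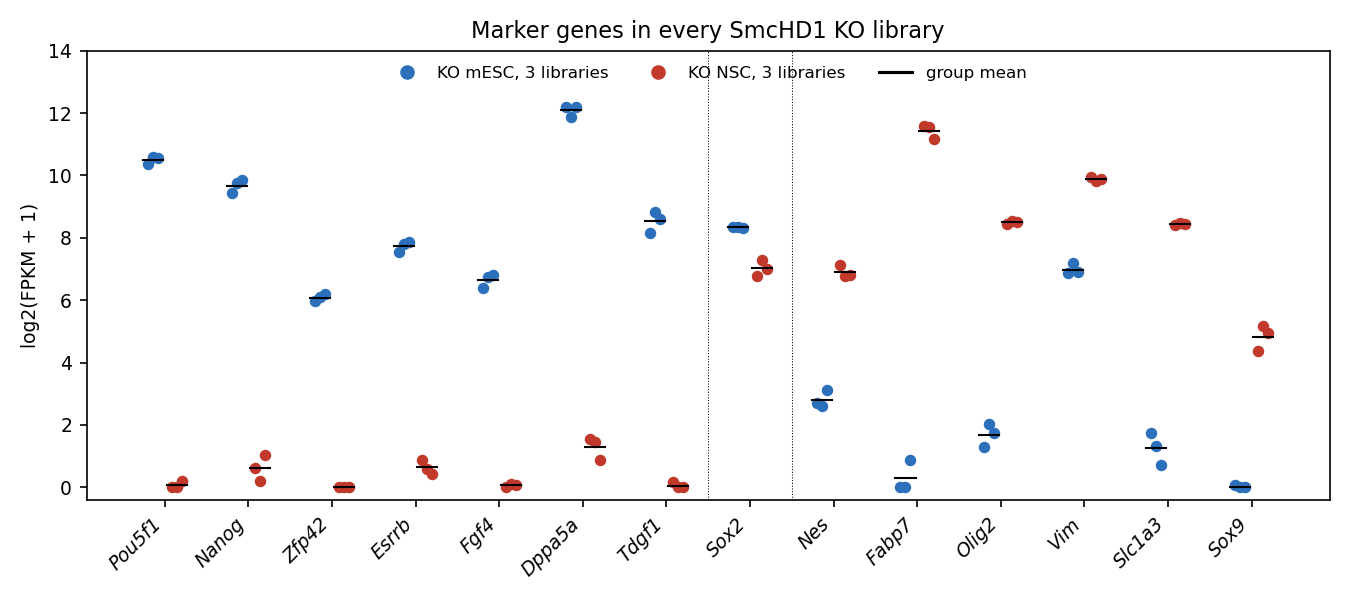
Levels of 7 mESC markers (left), Sox2 (middle) and 6 NSC markers (right) in each KO library, as log2(FPKM + 1) on the vertical axis. Blue points are the 3 KO mESC libraries, red points the 3 KO NSC libraries and black bars the group means. The groups are apart at every marker, and they lie closest at Sox2, which changed by -1.32.

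The 10 largest rises were taken among genes with a mean of at least 5 FPKM in the higher group and no overlap, and all but Olig1 and Slc1a3 averaged under 1 FPKM in KO mESCs. Fabp7 led with 11.14 (SE 0.24, adjusted p = 1.56e-19), followed by Olig1, a transcription factor of the oligodendrocyte lineage, with 8.41 (SE 0.25), and Bcan, the proteoglycan brevican, with 8.38 (SE 0.16). Olig1 was at 2.09, 4.28 and 2.99 in KO mESCs against 1368, 1483 and 1255 in KO NSCs, and Bcan at 0.174, 0.336 and 0.154 against 402, 435 and 380. Sparcl1 (8.05), Ptn (8.04), Ncan (7.69), Ptprz1 (7.26), Slc1a3 (7.19) and Ccnd2 (7.13) completed the group together with 2610017I09Rik, which was listed at 0 in the 3 mESC libraries and at 172, 201 and 188 in the NSC libraries. Ptn encodes pleiotrophin and Ptprz1 its receptor phosphatase, which like Ncan and Bcan is a chondroitin sulfate proteoglycan. The locus of Ccnd2 overlaps that of 9330179D12Rik.

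The 10 largest falls were led by pluripotency genes. Dppa5a, an RNA-binding protein of pluripotent cells (chr9:78214861-78216006), was at 4702, 3742 and 4718 in KO mESCs against 1.92, 1.71 and 0.82 in KO NSCs and fell by 10.81 (SE 0.24, adjusted p = 2.33e-19). Pou5f1 fell by 10.44, and the Nanog entry changed by -9.05. Tdh, the threonine dehydrogenase on which mouse ES cells rely, was at 574, 565 and 657 against 0, 0.111 and 0 and fell by 9.17. Tdgf1, the Nodal co-receptor Cripto (-8.47), Mylpf, a muscle myosin light chain (-8.50), and Hspb1, a small heat-shock protein (-8.17), were also among them. 2210409E12Rik (463, 485 and 621 in KO mESCs) and Fam25c (308, 218 and 357) were listed at 0 in all 3 NSC libraries. Rps4y2 fell by 9.19, at a locus that spans Far2, 4732416N19Rik, Ergic2 and Tmtc1, so its reads may belong to neighbours. Sox2 (with Sox2ot), Pax6 (Pax6os1), Dnmt3l (Aire), Sycp3 (Chpt1), Ccnd3 (Bysl), Pfkp (Pitrm1), Pfkm (Senp1), Mest (Copg2), Jak1 (Raver2) and Igf2r (Airn and Mas1) also share a locus with another entry. For genes listed at 0 in a whole group the fitted change depends on the added value of 1, and their levels are given in its place.

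**Figure D2:**
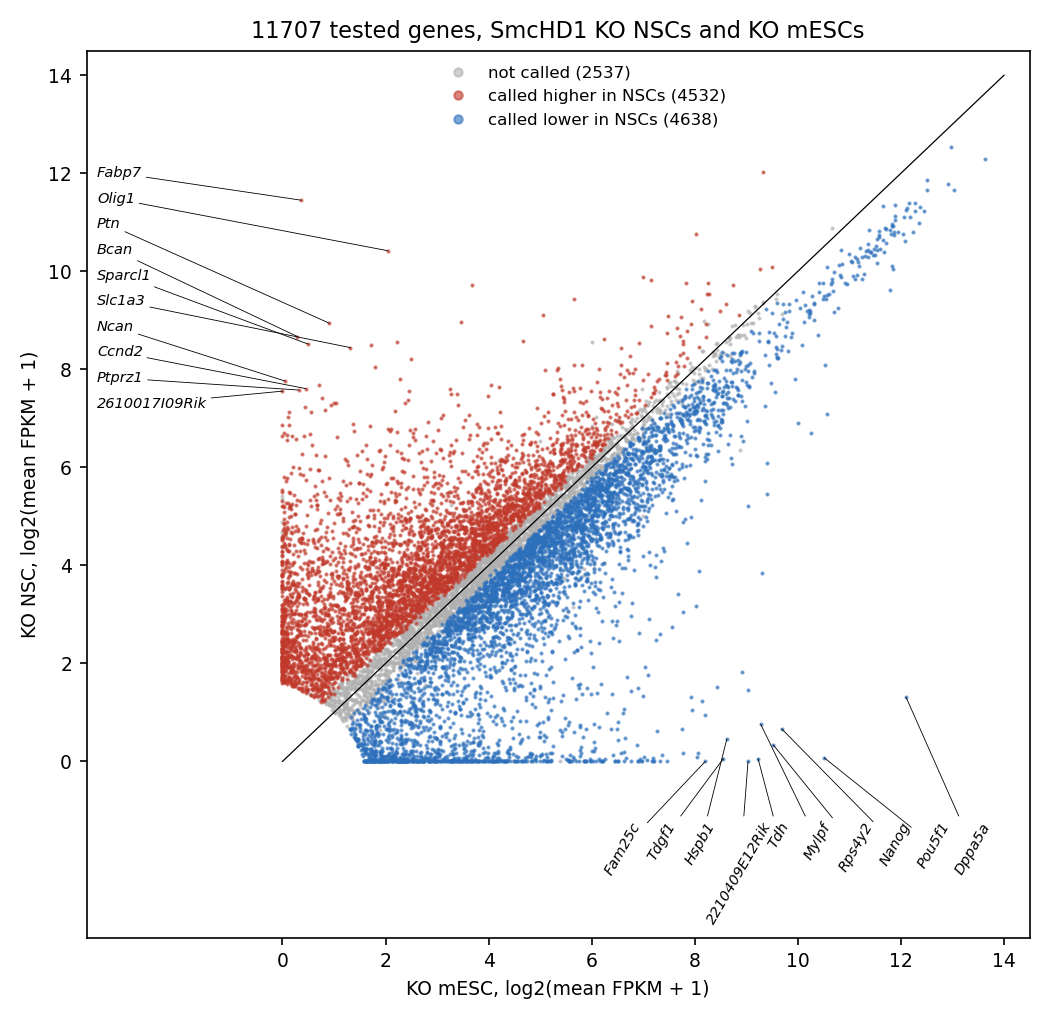
Mean level of each of the 11707 tested genes in KO mESCs (horizontal) and KO NSCs (vertical), both as log2(mean FPKM + 1), with a line of equal levels. Red points were called higher in NSCs (4532), blue points lower (4638) and grey points were not called, and names mark the 10 largest rises and falls.

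Gene lists, named by tissue and pathway, are described by how many of their tested members were called, beside 38.7% higher and 39.6% lower among all tested genes and a median change of -0.01. Of the tested genes 1120 averaged under 1 FPKM in KO mESCs and 972 in KO NSCs. They passed the limit of 1 through the other group alone, so their direction was fixed by the limit, and the counts and medians of lists rich in them describe levels and support nothing further. In the naive pluripotency list 14 of 14 members were lower, with a median of -6.63, and 12 of them were such genes. Klf2 was at 195, 294 and 248 FPKM in KO mESCs and at 1.3, 0.812 and 1.11 in KO NSCs. Esrrb was at 186, 222 and 232 against 0.837, 0.515 and 0.358, and Tfcp2l1 at 109, 122 and 131 against 0.0231, 0.0413 and 0.0197. Klf4 kept the highest NSC level of the naive transcription factors, at 8.61, 6.65 and 4.1, and fell by 4.26. Zfp42, Prdm14, Dppa3 and Tcl1 were listed at 0 in all 3 NSC libraries. Of the core and primed list, 15 of 16 were lower (median -6.04), and 13 averaged under 1 FPKM in NSCs. Nodal and its antagonist Lefty2 were listed at 0 in the NSC libraries, from 42.4, 54 and 42.6 and from 144, 163 and 125. Pou3f1, a factor shared by primed pluripotency and neural progenitors, was the exception and rose by 1.29 (SE 0.31), from 3.69, 2.78 and 3.27 to 11.9, 11.6 and 5.86.

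**Figure D3:**
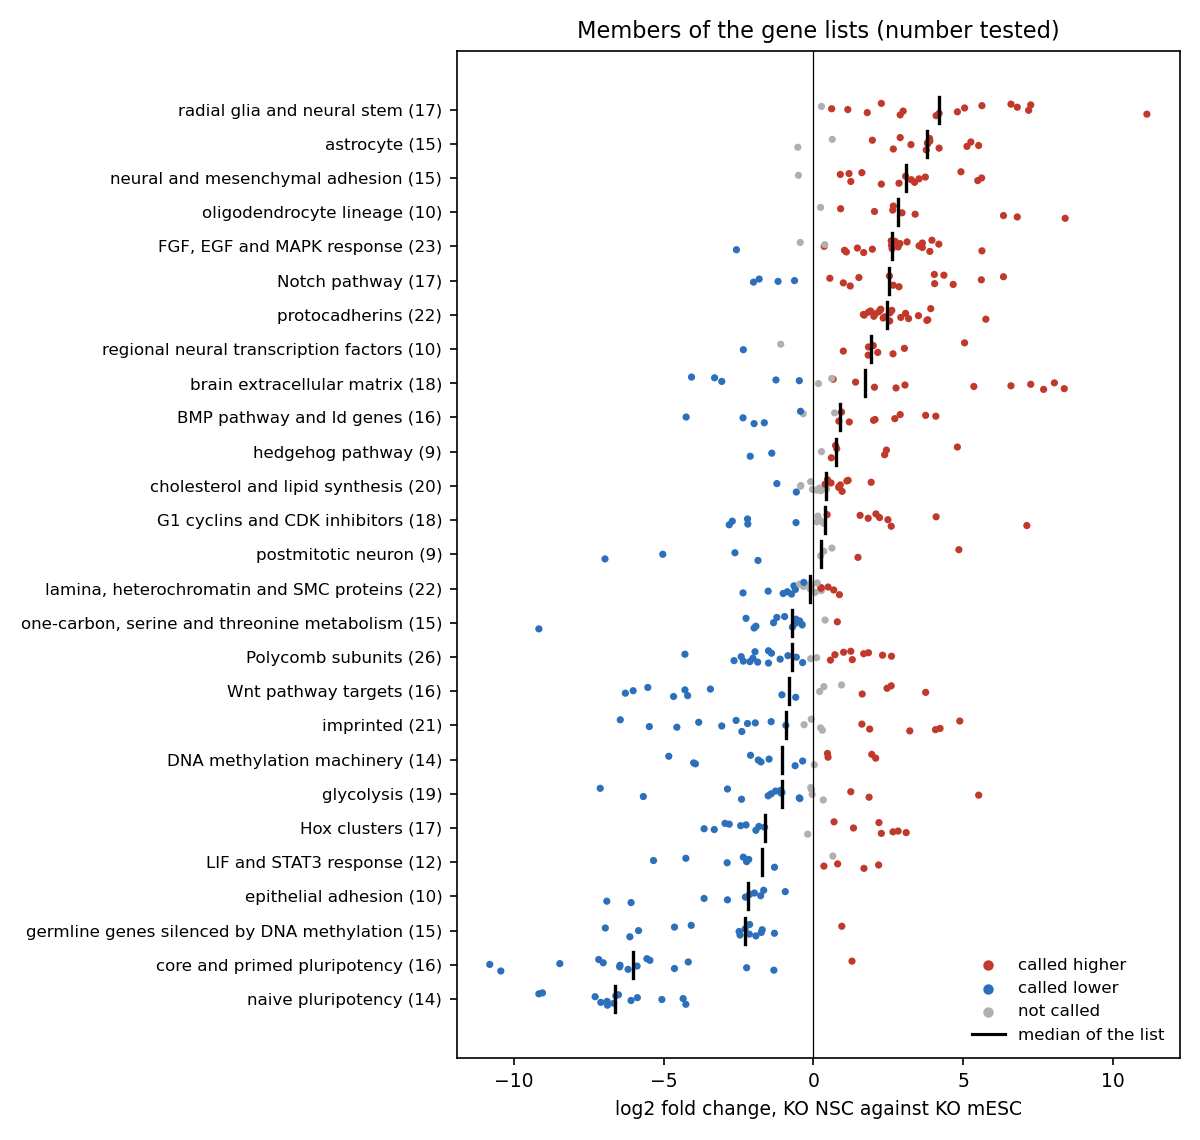
Log2 fold change of each tested member (points) of 27 gene lists, KO NSC against KO mESC, with the number tested in brackets and a black bar at the list's median. Red members were called higher, blue members lower and grey members were not called. Lists run from radial glia (median 4.20) at the top to naive pluripotency (median -6.63) at the bottom.

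LIF was in the mESC medium and not named for the NSC medium. Of 12 genes of the LIF and STAT3 response, which hold targets, receptors and kinases, 7 were lower and 4 higher (median -1.73). Socs3, the feedback inhibitor of STAT3 signalling, was at 28, 22.1 and 30.6 in KO mESCs against 5.89, 1.78 and 1.78 in KO NSCs, and Pim1, a kinase induced by STAT3, at 132, 131 and 142 against 2.29, 1.93 and 2.89. The receptor, its kinases and Stat3 itself went another way. Lifr (1.69), Jak2 (2.18) and Stat3 (0.81) rose, while the shared subunit Il6st fell by 1.30. Jak1 rose by 0.35, a call lost without KO NSC replicate 3.

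Of genes that Wnt and CHIR99021 induce, 9 of 16 were lower, 4 higher and the median was -0.82, but 7 averaged under 1 FPKM in NSCs. Of the 8 with at least 1 FPKM in both groups, 3 were higher, 2 lower and 3 not called. Sp5 was at 83.6, 80.7 and 89.4 in KO mESCs and at 0.11, 0.0988 and 0.0945 in KO NSCs, Notum at 44.2, 64.4 and 52.8 against 0.115, 0.309 and 0.0986, and Lef1 at 31, 34 and 33.4 against 0.278, 0.249 and 0.476. Cdx1 (75.7, 53.8 and 63.9) and Cdx2 (26.9, 15.8 and 14.9) were listed at 0 in NSCs. The list did not move as one. Tcf7l2 rose by 1.63 and Nkd1 by 3.75, and Lgr5, a Wnt-potentiating receptor, went from at most 0.0456 to 4.41, 4.44 and 4.92. Axin2, a general Wnt target, was at 30.7, 20.7 and 33.2 against 15.4, 20.7 and 18.4 and fell by 0.59, a call lost with libraries scaled to the same sum or without KO mESC replicate 1, KO mESC replicate 3 or KO NSC replicate 1.

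Genes of the FGF, EGF and MAPK response rose, as 20 of 23 tested members were higher, 1 lower and the median was 2.63, and 14 of the 16 with at least 1 FPKM in both groups were higher. Among the receptors, Egfr was at 0.455, 0.178 and 0.123 in KO mESCs against 58, 82.9 and 45.9 in KO NSCs, and Fgfr3 at 1.02, 0.93 and 1.27 against 19, 48.7 and 28.1. Erbb3 fell by 2.57. The feedback inhibitors Spry4 (3.64), Spred3 (3.53) and Dusp6 (4.19) and the ERK-induced ETS factor Etv4 (3.64) rose, whereas Etv5 was at 187, 230 and 224 against 165, 156 and 148 and was not called. Dusp6 was at 1.58, 4.2 and 1.09 in KO mESCs and at 37.6, 53.2 and 80.7 in KO NSCs. The calls of the immediate early genes were weak, with KO mESC replicate 3 far below the other libraries. Fos was at 21.4, 24.5 and 0.249 in KO mESCs and at 67, 62.9 and 46.9 in KO NSCs, and its change of 2.73 (adjusted p = 0.0483) became 1.31 (adjusted p = 0.301) without KO mESC replicate 3. Egr1, at 14.9, 43.4 and 0.246 against 77.3, 98 and 75.1, went from 3.13 (adjusted p = 0.0314) to 1.66 (adjusted p = 0.21) in the same way. Both also lost the call without any 1 of the KO NSC libraries.

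Radial glia and neural stem genes rose in 16 of 17 tested cases, with none lower and a median of 4.20, and in 8 of the 9 with at least 1 FPKM in both groups. Pax6, a neurogenic transcription factor, was at 0.0915, 0 and 0.0998 in KO mESCs against 15, 22.6 and 18.7 in KO NSCs, and Olig2 at 1.45, 3.13 and 2.32 against 351, 369 and 362. Every NSC library was above every mESC library for both factors. Sox1, an early neural factor, reached a lower level, 4.31, 1.9 and 4.06. Gli3, the repressor of hedgehog signalling, was at 3.1, 3.65 and 3.29 against 5.09, 4.07 and 3.68 and was the 1 member not called, although it was called higher with libraries scaled to the same sum.

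The Notch pathway was called in 17 of 17 tested genes, 13 higher and 4 lower (median 2.54), and 9 and 3 of the 12 with at least 1 FPKM in both groups. Receptors and ligands rose. Notch1 was at 6.42, 7.15 and 6.42 in KO mESCs against 53.2, 60.9 and 49.7 in KO NSCs, and Dll1 at 0.737, 0 and 0.657 against 30.7, 45.4 and 31.3, whereas the ligand Jag2 fell by 2.00. Targets rose with them. Hes5, the bHLH repressor that keeps neural progenitors undifferentiated, was at 0, 0.192 and 0 against 104, 128 and 46.3, Hey1 at 1.73, 1.23 and 1.06 against 69.3, 34.5 and 42.7, and Nrarp, a feedback inhibitor, at 1.46, 1.21 and 1.49 against 30.9, 44.9 and 40.6. The glycosyltransferases that modify Notch divided, with Lfng rising by 5.61 (SE 0.21), from 0.623, 0.494 and 0.566 to 76, 82.2 and 68.5, and Mfng falling by 1.81. Rbpj itself fell by 1.18. Numb fell by 0.63, a call lost with libraries scaled to the same sum. In the promoter windows, which reach from 250 bases before to 50 after the start and were found for 8330 of the 11707 tested genes, GTGGGAA on either strand was present in 2 of 14 Notch genes (14.3%), Hes5 with 2 sites and Lfng with 1 that overlaps an E-box, beside 5.97% of all tested genes and 6.86% of those called higher by at least 1. A match is a run of letters and not a measured site.

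Of 10 tested genes of the oligodendrocyte lineage 9 were higher (median 2.81), 5 of which averaged under 1 FPKM in mESCs. Olig1 and Olig2 stood far above the other members in KO NSCs, followed by Sox8 at 118, 150 and 163. Pdgfra, the receptor of oligodendrocyte precursors, was at 0.204, 0.194 and 0.222 in KO mESCs against 8.18, 5.88 and 12.2 in KO NSCs, and Cspg4 (NG2) at 0.0551, 0.0262 and 0.0901 against 3.6, 1.91 and 5.09. Sox10 and the myelin-stage genes Mag, Mog, Enpp6 and Opalin were below the limit for members, at under 1 FPKM in each of the 6 libraries.

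Astrocyte genes were higher in 13 of 15 cases, none was lower and the median was 3.81. Of these 13, 7 averaged under 1 FPKM in mESCs. Several were uneven among the NSC libraries. Gfap, the astrocyte intermediate filament, was at 0.172, 0.0817 and 0.281 in KO mESCs and at 7.51, 6.87 and 60.6 in KO NSCs. It rose by 3.77 (SE 0.65), and by 2.80 (SE 0.52) without KO NSC replicate 3. The same library was the highest for Aqp4 (2.7, 4.99 and 10.7), Slc1a2 (11.6, 17.8 and 29), S100b (29.3, 27.3 and 56.5) and Apoe (261, 403 and 848). Apoe was not called, and Aldh1l1, at 14.2, 6.49 and 9.24 in KO mESCs against 6.46, 4.94 and 7.89, was called lower only when KO mESC replicate 2 was left out or under the replicate block. The nuclear factors Nfia (3.82), Nfib (3.81) and Nfix (5.26), which promote glial fate, rose as well.

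Postmitotic neuron genes gave 2 higher, 4 lower and 3 not called of 9 tested, and 8 more were below the limit. With libraries scaled to the same sum the split was 4 higher, 4 lower and 1 not called. Of the 5 with at least 1 FPKM in both groups, 0 were higher, 2 lower and 3 not called. Stmn2, a tubulin-binding growth protein, was at 125, 137 and 110 in KO mESCs and listed at 0 in KO NSCs. Nefl, a neurofilament, was at 39.8, 69 and 53.2 against 0.581, 0.416 and 0.995, and Tubb3 at 20.3, 50.7 and 34.5 against 7.15, 9.72 and 8.48. These neuronal cytoskeleton genes were thus higher in the mESCs. Gap43, another growth-associated protein, went the other way, from 1.38, 0.561 and 0.643 to 71.8, 37 and 52.6, and the RNA-binding protein Elavl3 rose by 1.49.

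Of 26 listed regional transcription factors 10 were tested, 8 higher, 1 lower and 1 not called (median 1.92), 6 of the 8 with under 1 FPKM in mESCs. Dbx2, of the intermediate neural tube, was highest at 31.7, 43 and 33 FPKM in KO NSCs, from 0.104, 0 and 0.228. Irx3 (8.77, 10.8 and 11.5), En1 (5.87, 6.76 and 8.6) and En2 (9.78, 8.87 and 11.1), of the hindbrain and midbrain, Lhx2 (6.52, 8.08 and 5.67) and Emx2 (3.93, 7.27 and 5.16), of the forebrain, were all present at a few FPKM. Nkx6-1, listed at 0 in KO mESCs, was uneven, at 2.1, 8.7 and 1.12, and passed the limit through the NSCs alone. Gbx2, which in mESCs is a STAT3 target and in the embryo a hindbrain factor, fell by 2.34.

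Hox genes, the positional factors of the body axis, moved in both directions, and within the Hoxa cluster the genes that rose lay on one side and those that fell on the other. Of 17 tested genes 7 were higher, 9 lower and 1 not called, though 5 that rose and 8 that fell averaged under 1 FPKM in the other group. The 7 that rose were Hoxa2, Hoxa3, Hoxa4, Hoxa5, Hoxb2, Hoxd8 and Hoxd9, and the 9 that fell were Hoxa7, Hoxa9, Hoxa10, Hoxb9 and the 5 tested genes of the Hoxc cluster. Hoxa3 was at 0.185, 0.0878 and 0.403 in KO mESCs against 7.51, 10.7 and 10.3 in KO NSCs, and Hoxa5 at 1.03, 0.491 and 0.422 against 9.37, 12.5 and 10. The entries of Hoxa3, Hoxa4 and Hoxa5 share 1 locus with Hoxa6 and 2700086A05Rik, so their reads may be divided among them and the 3 rises may not be separate. Conversely, Hoxa9 was at 14, 4.47 and 10.8 and Hoxc13 at 8.43, 5.71 and 6.23 in KO mESCs, and both were listed at 0 in KO NSCs. Hoxa10 was at 18.1, 7.29 and 16.4 against 0, 0.382 and 0. KO mESC replicate 2 had the lowest level of the 3 mESC libraries for Hoxa7, Hoxa9, Hoxa10, Hoxc9, Hoxc10 and Hoxd8. Hoxd9, at 5.12, 1.41 and 1.74 against 3.2, 4.83 and 5.94, overlapped and had the smallest change called, 0.69 (adjusted p = 0.0291). It was lost with a pseudocount of 0.1 and without KO mESC replicate 2 or 3 or KO NSC replicate 2 or 3, and was 1.11 without KO mESC replicate 1.

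**Figure D4:**
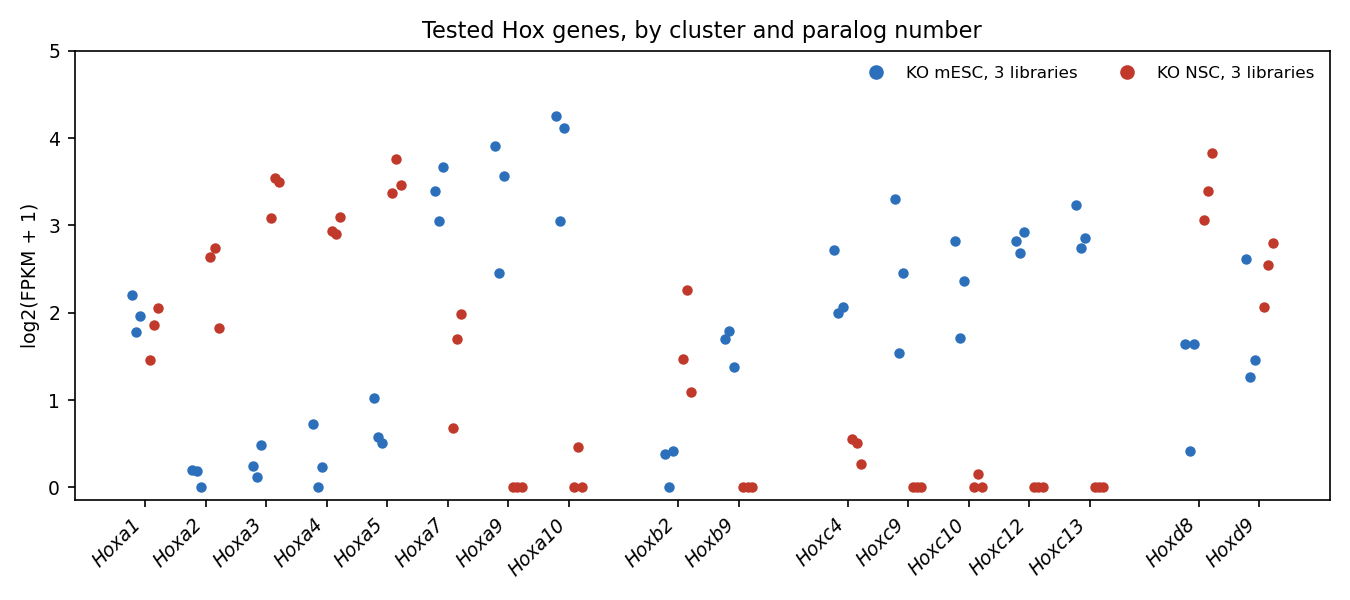
Levels of the 17 tested Hox genes in each KO library as log2(FPKM + 1), ordered by cluster and paralog number along the horizontal axis. Blue points are the 3 KO mESC libraries and red points the 3 KO NSC libraries. Red points lie above blue from Hoxa2 to Hoxa5, and blue above red from Hoxa7 to Hoxa10 and in the Hoxc cluster.

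Germline genes that DNA methylation silences in somatic cells were lower in 14 of 15 tested cases, with a median of -2.28. All 14 averaged under 1 FPKM in NSCs, so the limit fixed their direction, and 5 more listed genes were below it. Dazl, a germ cell RNA-binding protein, was at 91.2, 53.7 and 66.9 in KO mESCs, Tdrd12, of the piRNA pathway, at 56, 55.3 and 57.6, and Rpl10l at 107, 117 and 147, and all 3 were listed at 0 in KO NSCs. Hormad1, a meiotic chromosome axis protein, was at 22, 27.6 and 25.9 against 0, 0 and 0.137, and Mael, of the piRNA pathway, at 3.7, 5.2 and 4.56 against 0 in each library. Sycp3, of the synaptonemal complex, was lowest in KO mESC replicate 3, at 3.76, 2.68 and 0.768 against 0.455, 0.203 and 0.195, and fell by 1.30. Dmrtb1 was the exception and rose by 0.95, from 1.9, 1.55 and 1.48 to 5.38, 2.7 and 4.61. The E-box CACGTG was present in 6 of 14 promoter windows of the tested list (42.9%), beside 10.6% of all tested genes and 13.2% of those called lower by at least 1, and the E2F6 motif TCCCGC in 8 of 14 (57.1%) beside 37.9% and 38.2%. Hormad1 and Sycp3 each held 2 E-boxes and 1 E2F6 motif in the 250 bases shown, and Mael 1 of each.

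Of 14 genes of the DNA methylation machinery 13 were called, 9 lower and 4 higher (median -1.05). The de novo methyltransferase Dnmt3b was at 34.9, 42.7 and 33.6 in KO mESCs against 1.51, 1.58 and 1.3 in KO NSCs, and its cofactor Dnmt3l, at 18.1, 19.5 and 9.48, was listed at 0 in NSCs. Dnmt3a, at 16.3, 15.9 and 14.4 against 15.4, 15.6 and 16.7, was called higher only with libraries scaled to the same sum. The Tet dioxygenases exchanged order, as Tet1 (-1.84) and Tet2 (-1.48) fell while Tet3 rose by 2.08, from 2.28, 1.75 and 2.07 to 12.4, 12.2 and 10.9. Zfp57, the zinc-finger protein that guards imprints, went from 161, 224 and 180 to 4.41, 5.42 and 7.28, and its partner Trim28 from 557, 791 and 620 to 156, 158 and 139. Dnmt1 fell by 0.61, a call lost with libraries scaled to the same sum.

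Polycomb subunits fell in 15 of 26 cases and rose in 9 (median -0.71). Among the chromobox proteins, which read H3K27me3, Cbx7 and Cbx8 moved in opposite directions. Cbx7, the main one in mESCs, was at 55.2, 55.2 and 48.8 against 2.18, 1.11 and 2.13, while Cbx8 rose by 1.68. Among the ring finger partners Bmi1 rose by 2.61, from 5.03, 5.39 and 5.35 to 37.9, 34.2 and 39.6, and Pcgf2 (-2.02) and Pcgf6 (-2.41) fell. The PRC2 core genes Eed (-1.86) and Suz12 (-2.12) and the accessory genes Jarid2 (-2.34) and Mtf2 (-2.65) fell, each without overlap. Ezh2 was at 90.4, 88.5 and 86.8 against 72.9, 72.1 and 61.3, and its fall of 0.36 was lost with libraries scaled to the same sum.

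Lamina, heterochromatin and SMC genes were called in 13 of 22 cases (59.1%, against 78.3% of all tested genes), 8 lower and 5 higher. With libraries scaled to the same sum the split was 4 lower and 10 higher, so the list's direction depends on the scale. The lamin B receptor Lbr fell under either, from 97.9, 98.2 and 109 to 20.9, 17.3 and 19.5, and Lmna, the lamin of differentiated cells, rose by 0.87. KO mESC replicate 3 was low for several SMC genes. Smc3 of cohesin was at 74.6, 72.2 and 30.7 against 36.8, 33.4 and 33.5 and changed by -0.65 (adjusted p = 0.0385), and by -1.07 (adjusted p = 0.000424) without that library. Smc2 and Smc4 of condensin were not called, at -0.33 and -0.06, and went to -0.67 (adjusted p = 0.0146) and -0.55 (adjusted p = 0.189) without it. The call of Smc3 was also lost without any 1 of the other 5 libraries and with libraries scaled to the same sum.

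All 10 tested genes of epithelial adhesion averaged under 1 FPKM in NSCs and so could only be lower (median -2.20), and 6 more were below the limit. Among them was Cdh1, the E-cadherin of mESCs, at 64.8, 67.8 and 75.5 in KO mESCs against 0.0497, 0.0444 and 0 in KO NSCs, and Epcam at 131, 107 and 145 against 0.113, 0 and 0.0963. Of 15 neural and mesenchymal genes 14 were higher and none lower (median 3.08), and 7 of the 8 with at least 1 FPKM in both groups were higher. Cdh2, N-cadherin, was at 10.3, 10.8 and 12.4 against 60.4, 56 and 56.5, and Zeb1, a repressor of epithelial genes, at 6.63, 7.37 and 7.19 against 114, 110 and 97.2. Snai1 was at 2.19, 1.93 and 1.02 against 2.42, 0.541 and 0.259 and not called, although it was called lower without KO NSC replicate 1.

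Protocadherins, homophilic adhesion proteins of neurons, were higher in 22 of 22 tested cases, with a median of 2.46, but 21 of them averaged under 1 FPKM in mESCs and passed the limit through the NSCs alone, and 9 more were below it. A single entry that covers the alpha and gamma clusters, Pcdha1 first among its symbols, was at 25.2, 24.5 and 23.2 in KO mESCs against 343, 411 and 393 in KO NSCs. Pcdh10 went from at most 0.0584 to 46.9, 56.1 and 61. The 15 tested genes of the beta cluster lay between 1.37 and 12.5 FPKM in the NSC libraries, and Pcdhb5 was highest (8.79, 10.1 and 12.5). These paralogs are alike in sequence, so reads could be divided between them.

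Of 18 extracellular matrix genes 11 were higher, 5 lower and 2 not called, and 8 of the 11 averaged under 1 FPKM in mESCs. Of the 9 with at least 1 FPKM in both groups, 3 were higher, 4 lower and 2 not called. Besides Bcan and Ncan, the hyaluronan-binding Vcan rose by 2.76 and the glycoprotein Tnc, listed at 0 in KO mESCs, was at 118, 105 and 72. Genes of the basement membrane were among those that fell, with Lama1 at 13.6, 9.26 and 10.9 against 0.561, 0.522 and 0.288, and Nid2 at 85.1, 96 and 91.7 against 4.56, 4.72 and 4.13. Sparc was high in both, at 172, 177 and 199 against 236, 133 and 274, and was called higher only with libraries scaled to the same sum.

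BMP signalling genes gave 9 higher, 5 lower and 2 not called of 16 (median 0.89), but 4 averaged under 1 FPKM in NSCs and 2 in mESCs. Of the 10 with at least 1 FPKM in both groups, 8 were higher, 1 lower and 1 not called. The Id genes, dominant-negative bHLH proteins that BMP induces, were uneven among the NSC libraries. Id1 was at 2.44, 2.32 and 0.997 in KO mESCs and at 190, 33.5 and 16.2 in KO NSCs, a rise of 4.09 that was 3.10 without KO NSC replicate 1. Id2 was at 5.25, 7.49 and 4.84 against 159, 58.3 and 79, with the same library highest. The ligand Bmp4 fell by 1.98, and the inhibitory Smad7 fell by 4.25, from 26.6, 46.1 and 31.5 to 0.987, 0.839 and 0.676. Hedgehog genes gave 6 higher and 2 lower of 9, led by the co-receptor Gas1, at 2.07, 1.54 and 1.53 against 72.9, 77.9 and 74.2, while Shh itself was below the limit for members.

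Regulators of G1 moved in both directions. Of 18 genes 9 were higher, 5 lower and 4 not called. The D-type cyclin Ccnd2 was at 0.427, 0.369 and 0.296 in KO mESCs against 212, 142 and 228 in KO NSCs, Ccnd1 at 33.4, 49.2 and 34.7 against 296, 150 and 306, and Ccnd3 at 239, 315 and 284 against 40.5, 31.1 and 46.4. The 3 cyclins therefore changed order, with Ccnd3 first in mESCs and last in NSCs. Ccne1, the cyclin E that is abundant in mESCs, fell by 2.19. Among the inhibitors Cdkn1b (2.49), Cdkn2b (2.21) and Cdkn2c (4.10) rose, and Cdkn2a went from 57.7, 43.3 and 59 to 248, 152 and 184. Cdkn1c, at 3.94, 2.39 and 4.85, was listed at 0 in NSCs.

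Glycolytic genes were lower in 12 of 19 cases, higher in 3 and not called in 4 (median -1.05). With libraries scaled to the same sum the split was 10 lower and 6 higher. The glucose transporter Slc2a3 was at 552, 384 and 505 in KO mESCs against 1.73, 2.04 and 3.81 in KO NSCs, and the phosphofructokinase Pfkp at 131, 120 and 129 against 1.88, 1.04 and 1.61. Isozymes went opposite ways at both the phosphofructokinase and the aldolase step, as Pfkm rose by 1.86, Aldoa fell by 1.51 and Aldoc, the aldolase of astrocytes, rose by 5.52, from 10.2, 6.99 and 12.9 to 424, 511 and 553. Gapdh fell by 1.41, from 2299, 2373 and 2646 to 958, 956 and 846.

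Genes of one-carbon, serine and threonine metabolism were lower in 12 of 15 cases and higher in 1 (median -0.70), but with libraries scaled to the same sum only 7 were lower. Besides Tdh, the next enzyme of threonine breakdown, Gcat (-1.98, an entry shared with Galr3), Shmt1 (-1.92) and Ahcy (-2.25) fell, and all 3 were called lower under that scaling too. Phgdh, the first enzyme of serine synthesis, rose by 0.80. Cholesterol and lipid synthesis gave 10 higher, 2 lower and 8 not called of 20 (60% called), and 16 higher and 1 lower with the same sum. The fatty acid desaturase Scd2 rose by 1.93, from 243, 200 and 234 to 854, 891 and 837, and Fasn fell by 1.22.

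Imprinted genes, expressed from 1 parental copy, moved in both directions, with 11 lower, 6 higher and 4 not called of 21 (median -0.92). However, 6 averaged under 1 FPKM in NSCs and 2 in mESCs. Of the 13 with at least 1 FPKM in both groups, 5 were higher, 5 lower and 3 not called. The maternally expressed RNAs of the Dlk1 and Meg3 region, whose entries Meg3 and Mirg also hold microRNAs, fell together, with Meg3 at 67.6, 46.7 and 38.1 against 2.9, 0.143 and 1.18, Rian at 84.7, 65.5 and 57.3 against 0.681, 0.0554 and 1.11, and Mirg, at 7.49, 7.31 and 7.3, listed at 0 in NSCs. Mest rose by 4.08, from 25.1, 43.8 and 27.7 to 624, 557 and 469, and Peg10 (1.88) and its neighbour Sgce (4.23) rose as well. At the Igf2r locus the receptor fell by 2.39 while the antisense RNA Airn went from 0.361, 0 and 0 to 7.84, 9.97 and 10.3. Whether counting used the strand is not given in the sources used here.

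Markers of other cell types were read as whole lists. Of 14 endoderm genes 2 were tested, Cxcr4 and Dab2, both higher, and the list summed to 3.17 to 5.74 FPKM in KO mESCs and 11.4 to 15.6 in KO NSCs, with Afp and Ttr listed at 0 in all 6 libraries. Of 14 mesoderm genes 5 were tested, 2 higher and 3 lower. T was at 17, 9.47 and 9.84 in KO mESCs against 0.34, 0.203 and 0, and the list summed to 15.8 to 23.5 against 9.44 to 15.4. The 2 that rose were Pdgfra, a growth factor receptor that oligodendrocyte precursors also carry, by 2.96, reaching 8.18, 5.88 and 12.2 FPKM, and the forkhead factor Foxc1, by 1.48, reaching 2.6, 1.93 and 2.36. Both averaged under 1 FPKM in KO mESCs, and the 3 lower genes averaged under 1 FPKM in KO NSCs. Neural crest genes gave 4 higher and 3 lower of 7, with sums of 29.4 to 55.9 against 46.7 to 55.2. Among those that rose, the transcription factor Ets1 went from 0.667, 0.55 and 0.63 to 23.8, 22.2 and 18.7, and Twist1 from 1.82, 1.73 and 1.65 to 21.8, 15.6 and 20.9. Of those that fell, Foxd3 went from 9.06, 27.8 and 12.8 to 0 in each NSC library. Ngfr went from 10.7, 17.5 and 10.8 to 0, 0.176 and 0.112. Of the 7, 3 averaged under 1 FPKM in KO mESCs and 3 in KO NSCs, so the limit fixed their direction. Of 10 fibroblast genes 5 were tested, 2 higher and 3 not called. The fibrillin gene Fbn1 rose by 1.52, reaching 5.09, 2.76 and 2.81 FPKM and Loxl1 by 0.86, reaching 2.67, 1.13 and 1.77, both without overlap and from under 1 FPKM in KO mESCs. The list summed to 8.28 to 11.3 against 11.9 to 34.1, the highest being KO NSC replicate 1, in which Col3a1 was at 8.86 beside 0.384 and 0.367 in the other NSC libraries. Col3a1, listed at 0 in KO mESCs, was not called (adjusted p = 0.0556, and 0.437 without that library), but it was with a pseudocount of 0.1, with libraries scaled to the same sum and without KO NSC replicate 2 or 3. Dcn, Lum and Postn were above 0 in that library alone. Of 12 endothelial and blood genes 2 were tested, and Pecam1, which mESCs express, was at 33.5, 30.7 and 38.6 against 0 in each NSC library. The part these levels have in the other results was not tested.

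The change in KO cells was set beside that in WT cells by a test of the difference itself. Both changes were taken in the same fit from separate libraries, and across genes, which are not replicates, they had a Pearson's r of 0.966 and a Spearman's rho of 0.957. The difference was called for 290 genes (2.48%), with the KO change above the WT change for 155 (1.32%) and below it for 135 (1.15%). For 29 of them the changes were called in opposite directions. The count moved with single libraries. It was 176, 160 and 153 without KO mESC replicate 2, KO mESC replicate 3 or KO NSC replicate 3, 178 without WT mESC replicate 3 and 592 without WT NSC replicate 1, and 50 when only the 12 mESC and NSC libraries entered the fit.

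Hoxd8 had the largest difference above, 3.42 (SE 0.41, adjusted p = 6.41e-05). It went from 2.12, 0.336 and 2.12 to 7.36, 9.5 and 13.2 in KO cells, and from 0.671 to 2.08 in WT mESCs down to 0 to 0.155 in WT NSCs. Tfap2a, a neural crest and ectoderm factor, went from 0.731, 0.232 and 0.62 to 4.72, 4.72 and 7.37 in KO cells, and fell from 0.693 to 1.95 in WT mESCs to 0.336 to 0.531 in WT NSCs (difference 2.73). Dmrta2, a cortical progenitor factor, went from 0.708, 0.225 and 0.772 to 5.87, 7.23 and 6.26 beside 0.26 to 0.322 in WT NSCs (2.74), and AA792892 from 0, 0.407 and 0.933 to 3.11, 5.93 and 2.84 (2.81). All 4 were higher in KO NSCs than in any WT NSC library. Aldh1a1, a retinoic acid synthesis enzyme, was listed at 0 in mESCs of both genotypes and was at 7.09, 14.1 and 30.9 in KO NSCs beside 0.311 to 3.67 in WT NSCs. Its call was lost when only the 12 mESC and NSC libraries entered the fit, with or without a replicate block.

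Slc38a4, an imprinted amino acid transporter, had the largest difference below, -2.57 (SE 0.36, adjusted p = 5.89e-04). It fell from 96.5, 91 and 108 to 0.336, 0.0502 and 0.048 in KO cells and from 80.5 to 103 down to 2.92 to 11.2 in WT cells. Bcat1, an aminotransferase of branched-chain amino acids, fell from 116, 131 and 144 to 3.09, 2.25 and 3.02 beside 8.54 to 22.6 in WT NSCs (-2.27). Mdk, the growth factor midkine, whose locus overlaps Chrm4, fell from 142, 146 and 168 to 10.3, 1.27 and 2.13 beside 16.8 to 24.5 (-2.38). Nnat, an imprinted gene whose locus overlaps Blcap, rose to 231, 130 and 115 in KO NSCs and to 636 to 1102 in WT NSCs (-2.22). Rab3b, a vesicle protein, whose locus overlaps 8030443G20Rik, was at 3.26, 2.7 and 2.8 in KO mESCs and 1.81, 1.38 and 0.804 in KO NSCs, beside 9.28 to 38.3 in WT NSCs (-2.44). The calls of Mdk and Rab3b were lost when only the 12 mESC and NSC libraries entered the fit, with or without a replicate block. Among the lists, Hoxa2 (-2.09) and Hoxb2 (-2.21) rose less in KO cells, Hoxd9 (2.16) had a fitted change above 0 in KO cells and below 0 in WT cells, Cdkn2a differed by 1.81 and Gbx2 by -2.07. The calls of Hoxd9 and Gbx2 were lost when only the 12 mESC and NSC libraries entered the fit or a replicate block was added, that of Hoxb2 under the block and that of Hoxa2 with a pseudocount of 0.1, whereas Cdkn2a kept its call in each alternative.

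Of the 135 genes with a KO change below the WT change, 35 lay on chromosome 11, 3.59% of its 974 tested genes. From 80 Mb on, a limit chosen after the values were seen, 31 of 454 genes (6.83%) were below and 0 above. There the median KO minus WT difference was 0.03 in mESCs and -0.26 in NSCs, and the median change was 0.26 in WT cells and -0.08 in KO cells. On chromosome 3 from 140 Mb on, 4 of 39 genes (10.3%) were above, with a median KO minus WT difference of -0.65 in mESCs and -0.12 in NSCs. The part of these regions in the single-gene differences was not tested. A difference in copy number of these regions between the groups was not tested and cannot be told apart from genotype and stage.

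**Figure D5:**
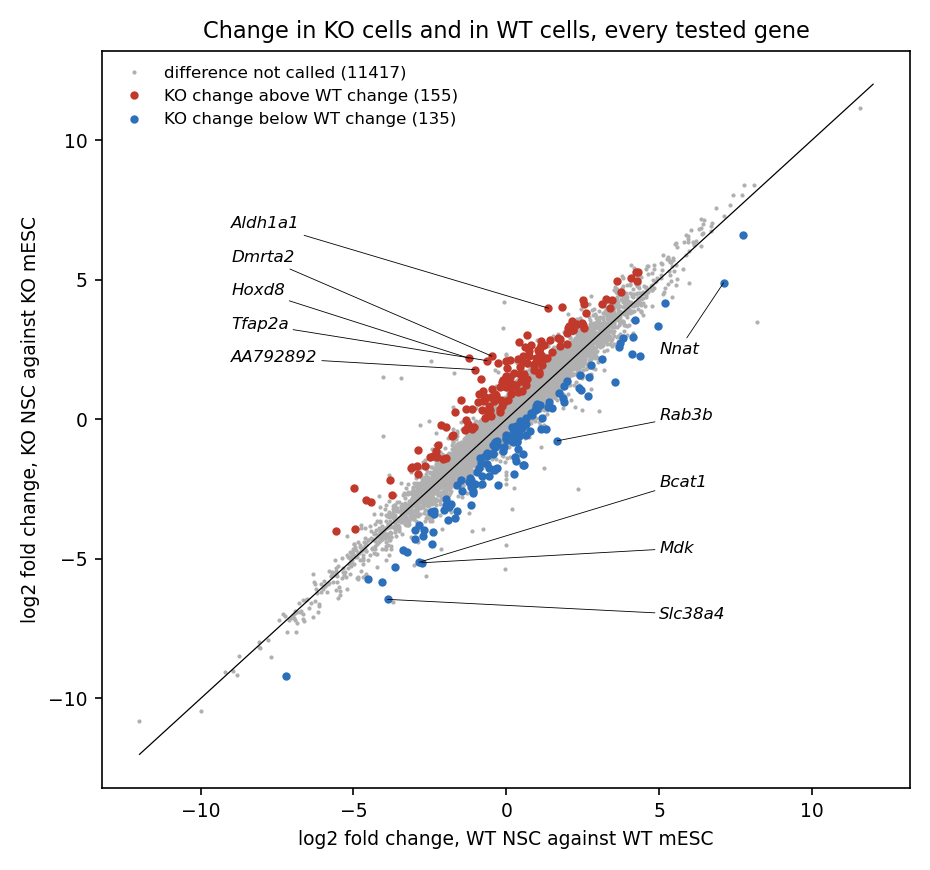
Log2 fold change of each tested gene between NSCs and mESCs in WT cells (horizontal) and in KO cells (vertical), with a line of equal change. Red points are the 155 genes whose KO change was called above the WT change, blue points the 135 called below it and grey points the rest, and the 10 named genes are the largest differences above (5) and below (5).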

How the data were processed

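Poly(A) RNA of 24 libraries was sequenced. Per the labels and the methods, the authors used Trim Galore (0.6.6) for trimming and TopHat2 (2.1.1) for alignment to mm9, left out rRNA and X-linked reads, and quantified genes with Cuffdiff. What they deposited is FPKM per gene and library, a unit that is not a count and keeps no read total, and Cuffdiff's scaling between libraries is not given in the sources used here. Of 36 FPKM columns 12 were not used. Genes were tested with limma (3.58.1, R 4.3.3) on log2(FPKM + 1), with a pseudocount of 1, over all 24 libraries in 8 groups without an intercept, by moderated two-sided tests with trend and robust, with Benjamini-Hochberg adjustment over the 11707 tested genes. A change is a difference on this log2 scale, which understates that of low genes, and SE is its standard error. The difference of the KO and WT changes was a contrast of the same fit. With 3 against 3 libraries an exact permutation test cannot go below 0.1, so no such p is given. Same-numbered KO mESC and KO NSC libraries did not deviate together (correlation of deviations -0.04 for each same-numbered pair), which does not exclude pairing. No block was used in the main fit, and WT libraries were not compared in this way. The study describes 3 biologically independent experiments for these cells. The labels do not tie libraries to cultures, and the p-values measure the spread between these libraries.

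Groups came from the labels. Named genes were Smchd1, the 10 largest rises and falls, the 4 largest changes of each of 32 lists (582 genes) with other members by role, the 5 largest differences from WT in each direction and the 5 highest genes of each group. Members and lists were chosen with earlier results of these data known. Of the tested entries 128 hold several symbols. Promoter windows were the first listed for each gene by RefSeq. Alternatives were other pseudocounts, filters, scalings and library sets, a replicate block and each library left out, WT libraries after the data were seen. A few genes named by this rule are not reported here.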

Additional observations from a re-analysis of the deposited data

Results flagged for a closer look

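These 10 genes were flagged because the change from mESCs to NSCs differed between KO and WT cells by the test of that difference (limma), 5 in each direction. Hoxd8 (3.42), AA792892 (2.81), Dmrta2 (2.74) and Tfap2a (2.73) rose in KO cells and had a fitted change below 0 in WT cells, of -1.23, -1.03, -0.47 and -0.63. Aldh1a1 was listed at 0 in all mESC libraries, so its fitted difference of 2.60 depends on the pseudocount and is no measure of size. Slc38a4 (-2.57), Mdk (-2.38) and Bcat1 (-2.27) fell in both and further in KO cells, Nnat (-2.22) rose in both and less in KO cells, and Rab3b (-2.44) rose in WT cells while its KO change of -0.77 was not called (adjusted p = 0.0505, limma). That change was called lower with a pseudocount of 0.1, in the 6 libraries alone with or without a replicate block, and without KO NSC replicate 1. Aldh1a1, Rab3b and Mdk lost the call when only the 12 mESC and NSC libraries entered the fit, with or without a replicate block.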

How the results depend on the processing

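The number of genes called between KO NSCs and KO mESCs ranged from 8818 to 9223 of 11707 over the alternatives with these genes, and was 10953 of 18156 without a filter on low values and 9199 of 12105 with the filter over all 24 libraries. Scaling each library to the same sum was the one alternative that moved a direction count by over 1.5 times, to 2967 genes lower, with 7554 of the 9170 calls shared. It reversed Eef1a1, the most abundant gene of the KO NSCs, from -0.43 to 0.09 (not called) and ended the call of Rpl41. With libraries left out one at a time, 8818 to 8978 genes were called, and Meox1 lost its call without KO mESC replicate 2 (-1.35) or KO NSC replicate 2 (-1.41). A replicate block in the 6 libraries gave 8997 calls, and Id3 and Eef1a1 lost theirs.

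The difference of the KO and WT changes depended more on the fit. In the 12 mESC and NSC libraries alone 50 genes were called, 35 above and 15 below, all 50 with a size of at least 1. With the replicate block in those 12 libraries 36 were, 22 above and 14 below. Scaling to the same sum left 77 below. With single KO or WT libraries left out 153 to 592 were called, 81 to 293 above, 71 to 299 below and 115 to 299 with a size of at least 1, and both ends of the total were KO NSC replicate 3 and WT NSC replicate 1. Over the 149 genes fixed by the naming rule or used as markers, direction and call held 2069 times, with 9 calls gained, 5 lost and 1 reversal. Of the 381 called members of the lists, 344 were called under every alternative and 37 lost the call under at least 1, those described being named in the text. For the 10 largest differences the call held 193 times and was lost 6 times, but of 27 differences called among list members 22 lost the call under at least 1 alternative. FPKM without read totals give no counting error, so values below about 1 FPKM carry an unknown one.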

Other observations

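Of the 10 genes with the largest rises, several were low in the KO neurectoderm cells of day 7 and day 9, which come from another differentiation protocol and do not lie on the path to these NSCs. Olig1 averaged 1.22 FPKM at day 7 and 0.722 at day 9, Bcan 0.901 and 0.453, and Ptprz1 2.72 and 3.59 (n = 3 each), against 1255 or more, 380 or more and 176 or more in the KO NSC libraries. Ptn, in contrast, was at 203 and 140, and Fabp7 at 95.1 and 538. 2610017I09Rik, listed at 0 in the KO mESCs, was at 9.26 and 152. Of the genes that fell, Dppa5a was at 408 and 251 and Pou5f1 at 240 and 53.5 at these days, while Mdk, which fell from mESCs to NSCs, averaged 1187 at day 7.

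The most abundant genes of both cell types were mostly of translation. In the KO NSCs they were Eef1a1 (6312, 6169 and 5429 FPKM), the microRNA entry Mir682, the brain creatine kinase Ckb (4324, 4941 and 3254, from 578, 594 and 748 in the KO mESCs), Rpl41 and Rplp1. In the KO mESCs they were Mir682, Mir692-1, Eef1a1, Rplp1 and Rpl23a. Mir682 (12026, 12818 and 13226 in the KO mESCs) and Mir692-1 are short entries in a library of poly(A) RNA, and which transcripts gave their reads was not tested.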
